A study of Sus scrofa with 6 samples.

Results

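Nuclear-encoded genes for the respiratory chain and ATP synthase were examined in the liver of newborn piglets from 2 groups of sows. The genes were taken by symbol, with the prefixes NDUFA, NDUFB, NDUFC, NDUFS, NDUFV, SDHA to SDHD, UQCR, CYC1, COX4I, COX5 to COX8 and ATP5, from features outside the mitochondrial sequence that had 1 FPKM or more in at least 3 libraries. FPKM are fragment numbers scaled to the length of the feature and to the size of the library. This gave 50 genes of the 26733 features listed and of the 10901 that passed the same filter. The gene name table holds 84 symbols with these prefixes, and 51 of their identifiers were in the files. NDUFA4L2 was the 1 gene that did not pass the filter, at 0.145 FPKM in 2×Trp 1 and listed at 0 in the other 5 libraries. The other 33 symbols, among them CYC1, NDUFS3, NDUFV2, COX6A1 and COX6C, were not analysed here.

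Piglets of the High-Low group had mothers fed a diet with 0.39% tryptophan in the morning and 0.13% in the afternoon, and piglets of the 2×Trp group had mothers fed 0.26% at both meals. All piglets were Landrace x Yorkshire crosses and each group had 3 liver libraries. The series title places the comparison in a search for negative effects of dietary tryptophan. Nothing in the labels states whether each library is its own piglet or litter, and p-values therefore reflect the spread between libraries alone, which could be technical.

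The respiratory chain passes electrons from NADH and succinate to oxygen through complexes I to IV of the inner mitochondrial membrane and pumps protons, and ATP synthase uses the proton gradient to make ATP. Complex II is built from nuclear genes alone, while complexes I, III and IV and ATP synthase combine nuclear-encoded subunits with subunits encoded by mitochondrial DNA. Hepatocytes are rich in mitochondria, and around birth the liver turns from glucose supplied by the placenta to the oxidation of fatty acids from milk. The shared nuclear control of these genes in mammals is usually ascribed to NRF1, GABPA, ESRRA and the coactivator PPARGC1A.

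FPKM totals ran from 956426 to 1230288 per library, and read depth is unknown because the values keep no counts. The libraries carried the labelled tissue's markers: 10 of 11 matched hepatocyte markers passed the filter, while AHSG was listed at 0 in all libraries. Muscle markers, which could bring in other respiratory chain isoforms, summed to at most 0.327 FPKM over 3 of 10 markers matched, with MYL1 listed at 0 throughout. Summed endothelial markers (6 of 8 matched) were 56.6 to 80.7 FPKM in High-Low and 81.9 to 121 FPKM in 2×Trp. Summed erythroid markers (6 of 8) were 1817 to 7199 and 6170 to 15893 FPKM, High-Low first. Summed macrophage markers (5 of 8) were 246 to 444 and 413 to 572 FPKM, High-Low first. Each sum was mostly 1 gene. HBB alone had 1793 to 7122 and 6094 to 15745 FPKM, and C1QA alone 190 to 363 and 335 to 469 FPKM. By gene, High-Low was lower for 5 of 5 tested erythroid and 4 of 5 tested macrophage markers, and MARCO was higher (log2 fold change 0.50). Fewer cells of a type and less RNA per cell cannot be told apart in such tissue libraries, and the part of these cell types in the results below was not tested.

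By FPKM, the 50 genes were among the abundant transcripts of this liver. The median gene stood at the 93.8th percentile of mean FPKM among genes tested, and 36 of the 50 were at the 90th percentile or above. On average over the 6 libraries 30 genes had 100 FPKM or more. Of those below, 5 had under 10 FPKM, and all 5 were assembly factors, which help to build a complex but are not part of it. By complex, the median of mean FPKM was 118 for the 20 subunits of complex I, 131 for the 4 of complex II, 235 for the 6 of complex III, 396 for the 7 of complex IV, 263 for the 6 of ATP synthase and 5.30 for the 7 assembly factors. Levels of different genes rest on the feature lengths behind the FPKM. Those listed ran from 150 to 5294 bases over the 50 genes, with a median of 358, against 692 over the nuclear genes tested. The sources used here do not say which length entered the FPKM. Percentiles, medians by complex and the order of genes are therefore less certain than a difference between libraries for the same gene.

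**Figure D1:**
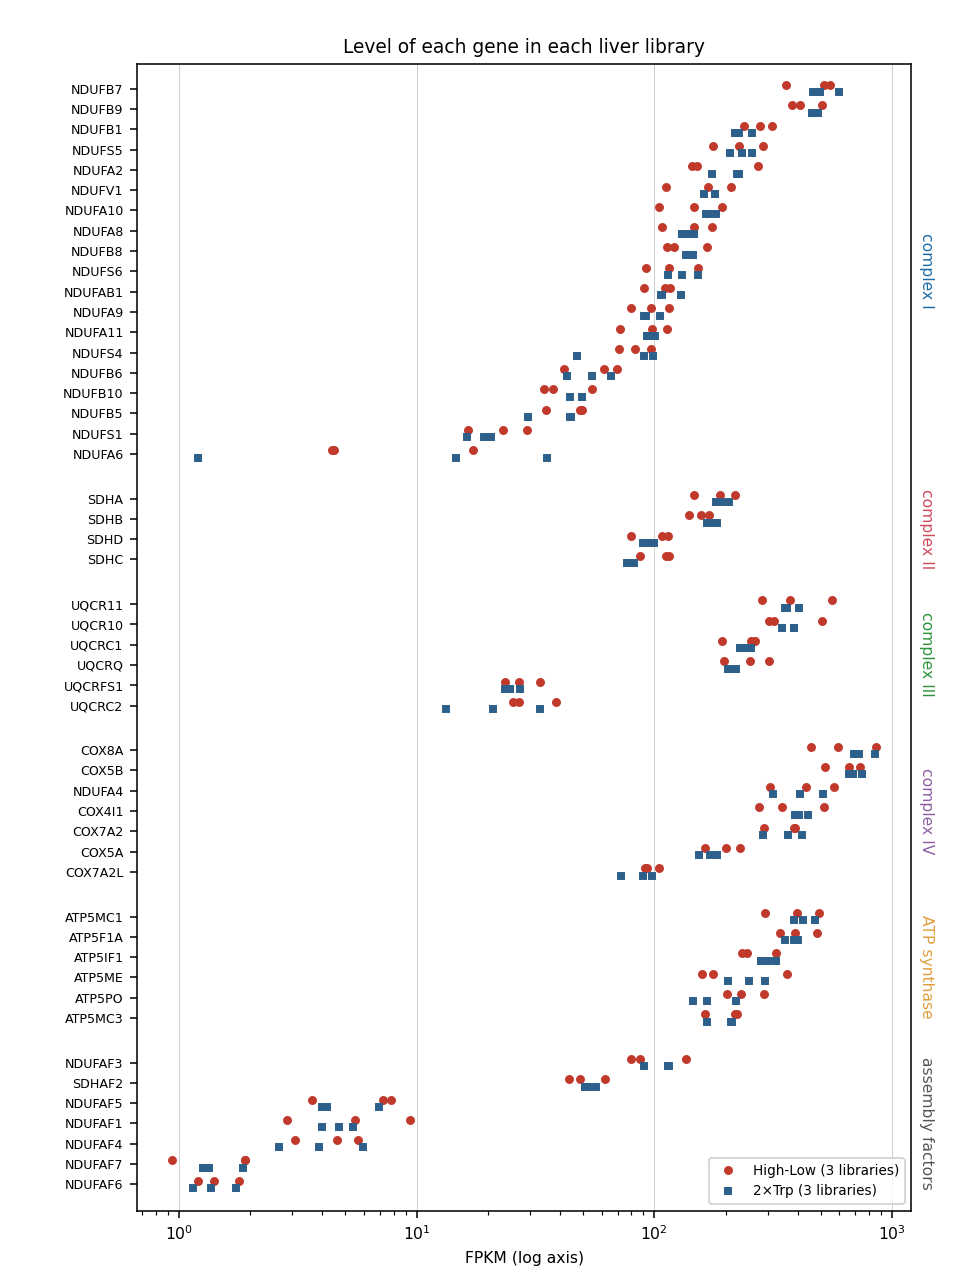
FPKM of each gene shown in each library on a log axis, ordered by complex and mean level, with High-Low circles above 2×Trp squares. Of the genes shown the groups overlap for all but SDHC, and NDUFA6 spans 1.21 to 35.3 FPKM.

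None of the 50 genes differed between the maternal diets past the threshold, an adjusted p under 0.05 in limma with Benjamini-Hochberg adjustment over all genes tested. Over all 10901 genes tested 1 passed, or 0.00917%. The smallest adjusted p among the 50 was 0.998. At an unadjusted p under 0.05 there were also 0 of 50, against 3.16% of all genes tested. The log2 fold changes, High-Low minus 2×Trp on the log2(FPKM + 1) scale, were positive for 26 and negative for 24 of the 50, with a median of 0.0064, beside a median of -0.0038 and 49.5% positive over all genes tested. Limma's 95% interval lay between -1 and 1 for 47 of the 50 genes. NDUFA6, UQCRC2 and NDUFAF1 were the exceptions, and the median interval was 0.52 wide on either side of the estimate. A value of 1 on this scale is close to 2-fold in FPKM for abundant genes. For low genes it is more than 2-fold, so a 2-fold difference in FPKM was not outside the interval for all 47.

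The groups did not overlap for 2 of the 50 genes, or 4%, against 7.18% of all genes tested. In both, all 3 High-Low libraries stood above all 3 2×Trp libraries, and SDHC of complex II is described below.

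**Figure D2:**
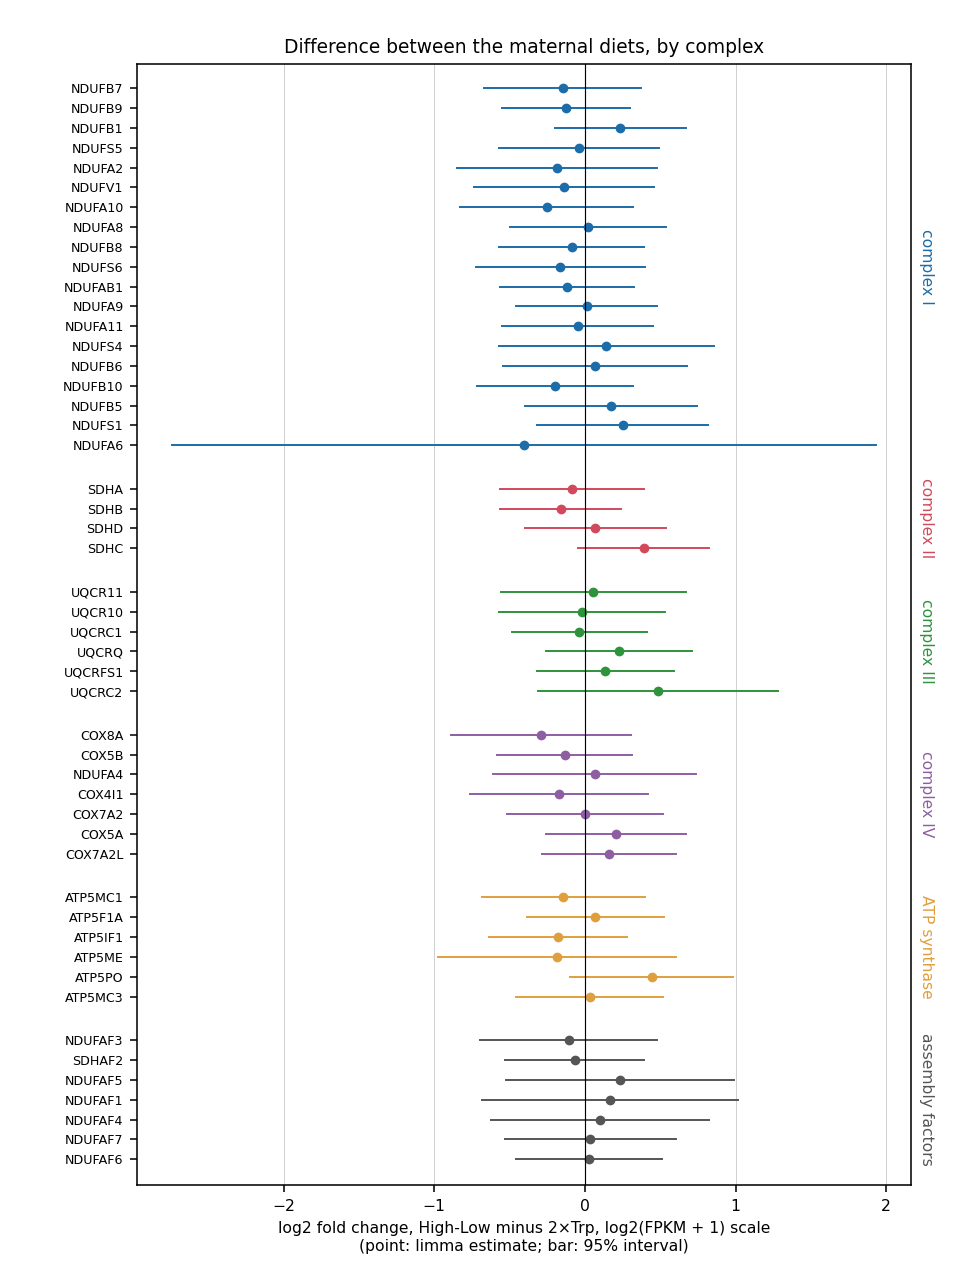
Log2 fold change of each gene shown, High-Low minus 2×Trp on the log2(FPKM + 1) scale, with limma's 95% interval as a bar and genes grouped by complex. Every interval includes 0, and only that of NDUFA6 extends beyond -2.

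Complex I takes electrons from NADH. Its 20 tested subunits had a median log2 fold change of -0.07, with 8 positive and 12 negative. NDUFA10, an accessory subunit, had the smallest p on the negative side. Its levels were 147, 192 and 105 FPKM in High-Low and 165, 182 and 168 FPKM in 2×Trp, so that the High-Low libraries lay on both sides of the 2×Trp ones (log2 fold change -0.25, SE 0.25, adjusted p = 0.998 in limma). NDUFB7, the most abundant subunit by FPKM, had 517, 547 and 359 FPKM in High-Low and 465, 599 and 497 FPKM in 2×Trp. The groups overlapped, with High-Low 3 lowest.

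NDUFA6, an accessory subunit of the LYR motif family, was both the lowest of complex I and by far the least even of the 50 genes. It lies on chromosome 5 at 3786583 to 3792164. It had 17.2, 4.51 and 4.40 FPKM in High-Low and 35.3, 14.6 and 1.21 FPKM in 2×Trp. The range was 29.2-fold and lay mainly within 2×Trp, while the median over the 50 genes was 1.63-fold and 42 of them stayed under 2-fold. The interval of its log2 fold change ran from -2.74 to 1.93. The core subunits NDUFS1 and NDUFV1 were named after their values were seen. NDUFS1, which receives electrons within the NADH-binding arm, had 29.1, 16.5 and 23.0 FPKM in High-Low and 16.3, 19.1 and 20.5 FPKM in 2×Trp. NDUFV1, which binds NADH, had 168, 210 and 112 FPKM in High-Low and 162, 180 and 181 FPKM in 2×Trp. High-Low 2 was thus near the bottom for NDUFS1 and at the top for NDUFV1.

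Complex II, succinate dehydrogenase, links the tricarboxylic acid cycle to the chain. SDHC, 1 of its 2 membrane anchors, lies on chromosome 4 at 96992135 to 97026507 of the susScr3 assembly and had the smallest p of the 50 genes. It had 115, 112 and 87.1 FPKM in High-Low and 78.5, 82.0 and 76.6 FPKM in 2×Trp. High-Low 3 stood close to the highest 2×Trp library and the other High-Low libraries well above it. Its means were 105 ± 15.3 and 79.0 ± 2.76 FPKM (SD, n = 3 each), with a log2 fold change of 0.39 (95% interval -0.04 to 0.83; unadjusted p 0.0707, adjusted p = 0.998 in limma). Its adjusted p stayed at or above 0.463 under every alternative.

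The partners of SDHC in complex II did not share that separation. SDHD, the other anchor, had 114, 108 and 79.9 FPKM in High-Low and 89.8, 94.6 and 99.7 FPKM in 2×Trp. SDHA, the flavoprotein that oxidizes succinate, had 217, 189 and 146 FPKM in High-Low and 190, 206 and 182 FPKM in 2×Trp. SDHB, the iron-sulfur subunit, had 170, 157 and 140 FPKM in High-Low and 172, 167 and 183 FPKM in 2×Trp, the smallest p of the complex on the negative side (log2 fold change -0.16, adjusted p = 0.998 in limma). In SDHA, SDHB and SDHD High-Low 3 was the lowest of all libraries.

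Complex III passes electrons from ubiquinol to cytochrome c. Its median log2 fold change was 0.10 over 6 subunits, 4 positive and 2 negative. UQCRC2, a core protein facing the matrix and the lowest of the complex by FPKM, lies on chromosome 3 at 24698822 to 24729655. It had 38.7, 27.0 and 25.4 FPKM in High-Low and 20.9, 13.3 and 33.0 FPKM in 2×Trp. It had the highest log2 fold change of the 50 genes, 0.49 with an interval from -0.31 to 1.28, and 2×Trp 3 stood above 2 of the 3 High-Low libraries. Without 2×Trp replicate 3 its unadjusted p was 0.0376 and its adjusted p still 1.00 in limma. UQCRC1, its partner, had 254, 264 and 193 FPKM in High-Low and 228, 241 and 255 FPKM in 2×Trp, with overlapping groups. The small subunit UQCR11 was the most abundant by FPKM, at 372, 556 and 284 FPKM in High-Low and 355, 407 and 362 FPKM in 2×Trp. High-Low held its highest and its lowest library.

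Complex IV, cytochrome c oxidase, hands electrons to oxygen. Over its 7 nuclear genes, NDUFA4 included, since that protein is now counted as a complex IV subunit, 4 log2 fold changes were positive and 3 negative, with a median of 0.0015. COX8A, the ubiquitous form of subunit VIII and the most abundant of the 50 genes by FPKM, had 594, 857 and 458 FPKM in High-Low and 689, 848 and 728 FPKM in 2×Trp. It had the smallest p of the complex on the negative side (log2 fold change -0.29, SE 0.25, adjusted p = 0.998 in limma), and High-Low 2 was nonetheless its highest library. Without High-Low replicate 2 its log2 fold change was -0.53 (adjusted p = 0.362 in limma).

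COX5A, which carries a regulatory site in mammals, had the smallest p of complex IV on the positive side. Its levels were 230, 200 and 164 FPKM in High-Low and 154, 172 and 184 FPKM in 2×Trp, and the groups overlapped. Of the isoform families only the forms of most tissues passed the filter, while NDUFA4L2 was listed at 0.145 FPKM or less. COX4I1 had 345, 517 and 275 FPKM in High-Low and 390, 443 and 407 FPKM in 2×Trp. COX7A2, the non-muscle form of subunit VIIa, had 387, 389 and 289 FPKM in High-Low and 285, 365 and 417 FPKM in 2×Trp. COX7A2L, which helps complexes III and IV associate, was the lowest of the group at 91.3, 105 and 92.96 FPKM in High-Low and 89.4, 97.8 and 72.7 FPKM in 2×Trp. NDUFA4 had 572, 435 and 305 FPKM in High-Low and 317, 409 and 512 FPKM in 2×Trp, so that each group covered nearly the same range. COX4I2, COX6A2 and COX7A1, which in mammals mark lung or muscle, were not analysed here.

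ATP synthase had 6 tested genes, 3 with a positive and 3 with a negative log2 fold change and a median of -0.06. ATP5PO, the stalk subunit that confers oligomycin sensitivity, lies on chromosome 13 at 207336286 to 207346588. It had 288, 231 and 203 FPKM in High-Low and 167, 220 and 145 FPKM in 2×Trp. A single 2×Trp library, 2×Trp 2, stood above the lowest High-Low library. The log2 fold change of ATP5PO was 0.44 (95% interval -0.10 to 0.98; unadjusted p 0.0948, adjusted p = 0.998 in limma). ATP5IF1, the inhibitor that stops the enzyme from hydrolysing ATP, had 245, 325 and 235 FPKM in High-Low and 280, 299.9 and 323 FPKM in 2×Trp. ATP5MC1 and ATP5MC3 encode the same mature ring subunit from separate genes. ATP5MC1 had 398, 491 and 292 FPKM in High-Low and 385, 475 and 422 FPKM in 2×Trp, and was the most abundant of the enzyme. ATP5MC3 had 219, 223 and 163 FPKM in High-Low and 167, 211 and 210 FPKM in 2×Trp, and was the least abundant.

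The prefixes also took in 7 assembly factors, 6 of complex I and 1 of complex II, with 5 positive and 2 negative log2 fold changes and a median of 0.04. NDUFAF3 was the most abundant, at 79.9, 136 and 87.1 FPKM in High-Low and 116, 114 and 90.6 FPKM in 2×Trp. NDUFAF5, a factor that modifies a core subunit, had 7.21, 3.62 and 7.83 FPKM in High-Low and 4.18, 6.92 and 3.9998 FPKM in 2×Trp. NDUFAF6 was the lowest of the 50 genes, at 1.79, 1.41 and 1.2005 FPKM in High-Low and 1.74, 1.37 and 1.14 FPKM in 2×Trp. The groups overlapped in all 7.

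As deposited, the libraries of the High-Low group were further apart in these genes than those of the 2×Trp group, and so were their FPKM totals, whose SD was 148504 in High-Low and 73001 in 2×Trp. The SD on the log2(FPKM + 1) scale was larger in High-Low than in 2×Trp for 40 of the 50 genes, or 80%, against 61.1% of all genes tested and 66.8% of the 882 other nuclear genes with a mean of 100 FPKM or more. The median SD over the 50 genes was 0.31 in High-Low and 0.14 in 2×Trp, and over all genes tested 0.33 and 0.25. Each library was also scaled to the same nuclear FPKM total, a setting chosen after seeing the data. The SD was then larger in High-Low for 34 of the 50 genes, or 68%, against 63.3% of all genes tested and 60.2% of the 882 others. The median SD was then 0.19 in High-Low and 0.13 in 2×Trp, and over all genes tested 0.345 and 0.26. The difference in spread was not tested. As an example, the 4 subunits of complex II as deposited summed to 616, 566 and 453 FPKM in High-Low and to 531, 550 and 541 FPKM in 2×Trp. The SDs of these sums were 83.2 and 9.46 FPKM, High-Low first, and those of complex III 333 and 31.2. The contrast was smaller in complex I (568 and 223), complex IV (581 and 245) and ATP synthase (321 and 171).

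As deposited, High-Low 2 and High-Low 3 most often set the limits of that range. High-Low 1 was the highest library for 17 of the 50 genes (34%, against 23.6% of all genes tested). In complex II it had the highest median deviation, 0.22 against 0.08 in High-Low 2. High-Low 3 was the lowest of the 6 libraries for 30 of the 50 genes, or 60%, and High-Low 2 the highest for 24, or 48%, against 15.7% and 23.8% of all genes tested. Among genes with a mean of 100 FPKM or more, High-Low 3 was lowest for 25 of the 30 members and for 350 of the 882 others (39.7%). The medians of the 5 complexes lay 0.24 to 0.36 below the mean of the 6 libraries on the log2(FPKM + 1) scale in High-Low 3, and in High-Low 2 from 0.08 to 0.28 above it. The 2×Trp libraries stayed between -0.16 and 0.13. High-Low 3 also had the lowest FPKM total and High-Low 2 the highest. With each library scaled to the same nuclear FPKM total, High-Low 3 was lowest for 10 of the 50 genes (20%, against 4.72% of all genes tested) and High-Low 2 highest for 17 (34%, against 15.1%). 2×Trp 1 was then also lowest for 10 genes (20%, against 16.3%), and High-Low 1 highest for 16 (32%, against 17.8%) and lowest for 9 (18%, against 26.6%). By count High-Low 2 and High-Low 3 thus no longer stood apart. Both remained above the shares over all genes tested, as did High-Low 1 as the highest library. Among genes with a mean of 100 FPKM or more, scaled alike, High-Low 3 was highest for 0 of the 30 members, against 20.6% of the others. High-Low 2 was highest for 15, or 50%, against 22.9%. The 50 genes together held 0.902%, 0.965% and 0.836% of the nuclear FPKM total in High-Low and 0.841%, 0.883% and 0.940% in 2×Trp, with SDs of 0.0645 and 0.04998 percentage points.

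**Figure D3:**
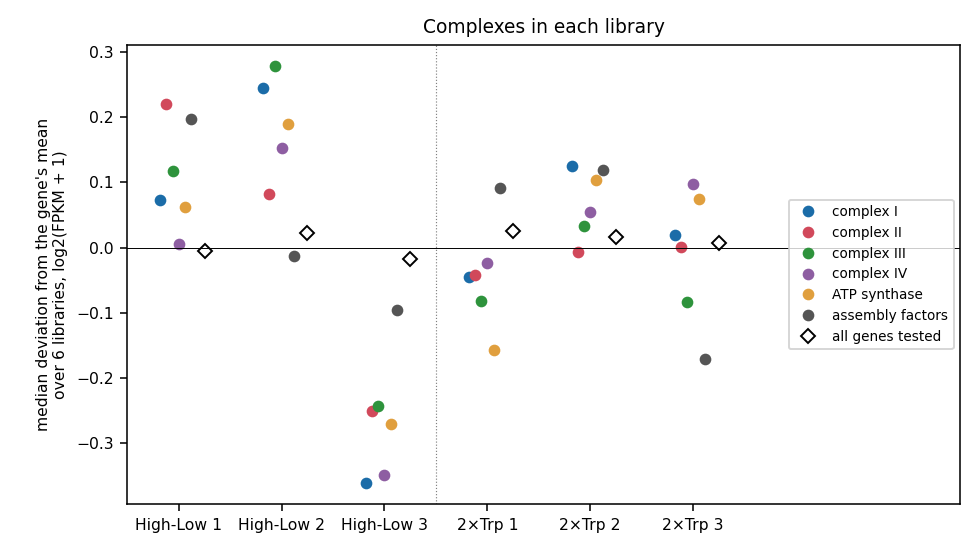
Median deviation of each complex from the gene's mean over 6 libraries, log2(FPKM + 1), by library, with all genes tested as open diamonds. The 5 complexes lie 0.24 to 0.36 below 0 in High-Low 3, while all genes tested stay within 0.03 of 0 in each library.

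Differences between libraries varied with the length of the gene on the chromosome. Across the 50 genes, Spearman's rank correlation between span and the deviation from the gene's mean was 0.54, -0.56 and 0.43 in High-Low and -0.25, -0.24 and -0.04 in 2×Trp. High-Low 1 and High-Low 2, with the most opposed values, are set out here. Of the 15 genes that span under 5000 bases, all 15 were lower in High-Low 1 than in High-Low 2, with a median difference of -0.41 on the log2(FPKM + 1) scale. Of the 11 that span 20000 bases or more, 10 were higher in High-Low 1, with a median of 0.22. In between, 4 of 13 genes of at least 5000 and under 10000 bases and 8 of 11 genes of at least 10000 and under 20000 bases were higher in High-Low 1. Spearman's rank correlation between the difference and the span was 0.59 across the 50 genes and 0.27 across 10885 nuclear genes tested. These are genes of the same 2 libraries, not independent replicates. Among all nuclear genes tested that span under 5000 bases, 1679 of 2572 were lower in High-Low 1. The rank correlation with the listed feature length was 0.05 across the 50 genes.

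At the short end stood ATP5ME, a small membrane subunit of ATP synthase, with 176 FPKM in High-Low 1 and 361 in High-Low 2, and NDUFA2 of complex I with 151 and 272 FPKM. At the long end NDUFS1 had 29.1 and 16.5 FPKM, and all 4 subunits of complex II, with spans of 13351 to 34373 bases, were higher in High-Low 1. ATP5ME and NDUFA2 were named after their values were seen. The log2 fold change between the diets ran the same way over the 50 genes. Its median was -0.14 over the 15 shortest genes, with 5 positive, and 0.14 over the 11 longest, with 9 positive. Over all nuclear genes tested the medians in these classes were -0.06 and 0.05. The part of gene length in the differences between diets was not tested.

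**Figure D4:**
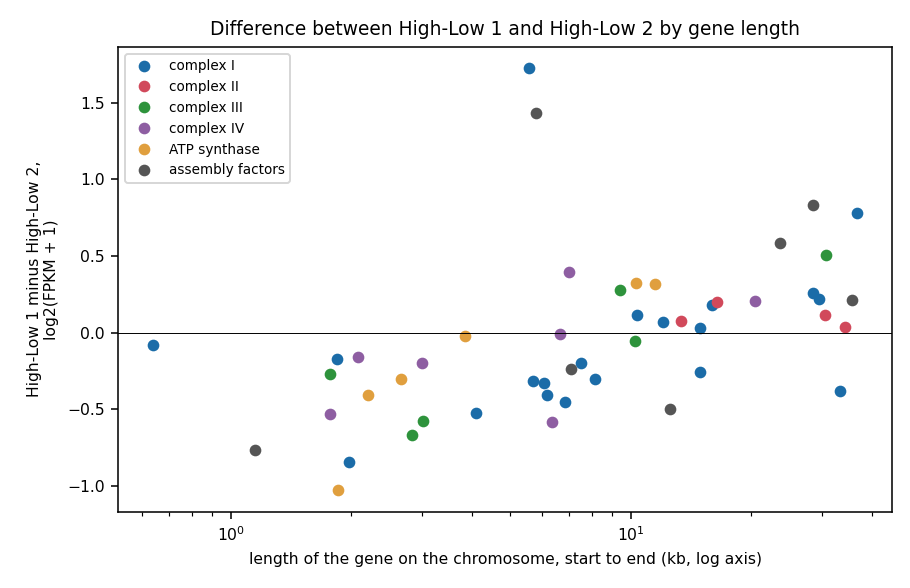
Difference between High-Low 1 and High-Low 2 in each of the 50 genes on the log2(FPKM + 1) scale against the length of the gene from start to end in kb (log axis), coloured by complex. Genes under 5 kb all lie below 0; the 2 points above 1 are NDUFA6 and NDUFAF1.

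The nuclear subunits were also set against the mitochondrially encoded subunits of the same complex. The 13 mitochondrially encoded subunits had log2 fold changes above 0 in every case (median 0.89). Of them 0 passed the threshold in limma, and 9 had an unadjusted p under 0.05 (69.2%, against 3.16% of all genes tested). The groups did not overlap for 9 (69.2%, against 7.18%). These are genes of the same mitochondrial sequence in the same 6 libraries, not independent replicates, so the 9 are not separate results. The whole mitochondrial sequence held 7.54 ± 2.19% of the FPKM total in High-Low and 4.28 ± 0.87% in 2×Trp (mean and SD, n = 3 each). ATP8 with ATP6, ND4L with ND4 and ND6 with ND5 overlap on the mitochondrial sequence, so their separate values are uncertain. The ratio of the summed mitochondrially encoded to the summed nuclear FPKM is free of any scaling between libraries. For complex I it was 9.14, 5.70 and 7.63 in High-Low and 3.45, 4.40 and 3.46 in 2×Trp. For complex III it was 3.41, 2.43 and 3.04 in High-Low and 1.51, 2.202 and 1.34 in 2×Trp, and for complex IV 14.2, 10.01 and 13.04 in High-Low and 6.35, 7.79 and 4.89 in 2×Trp. The High-Low libraries lay above the 2×Trp libraries in these 3 complexes. For ATP synthase the groups overlapped, at 25.9, 7.45 and 11.8 in High-Low and 6.49, 11.9 and 10.2 in 2×Trp. In High-Low 1, ATP8 alone had 34902 of the 46847 FPKM in the mitochondrial sum of ATP synthase. Of the 2 parts of the ratio for complex I, the nuclear sum averaged 2913 ± 568 FPKM in High-Low and 3023 ± 223 FPKM in 2×Trp. The mitochondrial sum averaged 21500 ± 4920 and 11466 ± 2475 FPKM (SD, n = 3 each). ND3 alone gave 12376 and 7614 FPKM of it.

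**Figure D5:**
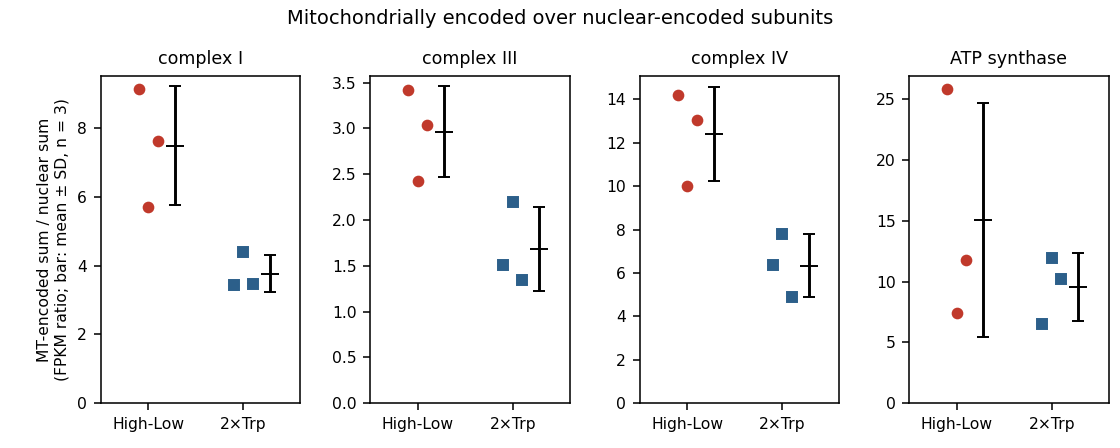
Summed FPKM of mitochondrially encoded subunits over summed FPKM of nuclear subunits, by complex, for each High-Low and 2×Trp library, with mean ± SD (n = 3). The High-Low points lie above the 2×Trp points in complexes I, III and IV and overlap them in ATP synthase.

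Other genes of mitochondrial energy metabolism had 0 members past the threshold in limma in either direction. The lists were assembled with earlier results of these data known. Regulators of mitochondrial genes had 13 tested of 23 listed, 10 above 0 and 3 below 0 in log2 fold change (median 0.08). PPARGC1A had 4.24, 1.89 and 3.02 FPKM in High-Low and 3.12, 3.58 and 1.71 FPKM in 2×Trp. NRF1 had 1.54, 1.94 and 2.22 FPKM in High-Low and 2.28, 1.58 and 1.82 FPKM in 2×Trp, and ESRRA 67.7, 90.3 and 64.9 FPKM in High-Low and 78.6, 53.3 and 68.1 FPKM in 2×Trp. The groups overlapped in each. GABPA, YY1 and TFAM were not analysed here.

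Assembly factors outside the prefixes had 15 positive and 5 negative log2 fold changes over 20 tested of 46 listed, with a median of 0.10. Enzymes of the tricarboxylic acid cycle and pyruvate dehydrogenase had 9 of each over 18 tested of 21 listed, with a median of 0.0043. The largest imbalance there was PDHA1, the catalytic subunit of pyruvate dehydrogenase, with 81.6, 29.2 and 36.1 FPKM in High-Low and 32.5, 32.7 and 31.3 FPKM in 2×Trp, where High-Low 1 stood alone. Electron carriers, enzymes that feed ubiquinone and exchange proteins had 14 positive and 6 negative over 20 tested of 25 listed, with a median of 0.04. In this list 3 of the 20 did not overlap between groups, all higher in High-Low (15%, against 7.18% of all genes tested), namely COQ6, PDSS1 and SLC25A5. PDSS1 had 1.18, 1.03 and 1.06 FPKM in High-Low and 0.767, 0.974 and 0.831 FPKM in 2×Trp. It passed the filter of 1 FPKM through the High-Low libraries alone, so its lack of overlap followed from the filter. COQ6, an enzyme of ubiquinone synthesis, had 12.1, 10.2 and 8.35 FPKM in High-Low and 8.04, 7.59 and 6.07 FPKM in 2×Trp (log2 fold change 0.44, adjusted p = 0.998 in limma). Mitochondrial ribosomal proteins had 17 positive and 27 negative over 44 tested, with a median of -0.04. MRPS18A had 33.1, 31.5 and 32.7 FPKM in High-Low and 41.3, 37.3 and 39.9 FPKM in 2×Trp, and was the 1 member of that list whose groups did not overlap (2.27%, below the 7.18% of all genes tested).

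Some values are uncertain from the annotation. On susScr3 the 50 genes lie on 16 chromosomes and, for SDHA and NDUFB10, on unplaced scaffolds. Another feature overlaps 7 of them, and for 4 that feature passed the filter. NDUFB10, at 45.0 FPKM on average, lies over an unnamed feature on the opposite strand with 2934 FPKM, and NDUFA2, SDHAF2 and NDUFAF7 overlap TMCO6, CPSF7 and CEBPZ on the opposite strand. The sources used here do not say whether strand was used, so reads of these pairs may not be separated. Small respiratory chain genes often have processed pseudogenes, and RefSeq (Sscrofa11.1) lists a pseudogene of NDUFA4. Nor do they say how reads that match several places were treated.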

How the data were processed

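Liver RNA was extracted with Trizol and made into Illumina TruSeq libraries, per the labels' protocols, with groups and replicate numbers taken from the sample titles. Tools listed, without their roles, in the submitters' processing notes are HTSeq 0.6.1, TopHat2 2.0.12 and Bowtie2 2.2.3, with the assembly susScr3. The authors deposited values, 1 file a library, which were read here as FPKM from their fractional form and unequal totals, since the file headers name no unit. Which step made these FPKM is not stated in those notes. Symbols were matched for 11804 of 25322 Ensembl identifiers.

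Genes with 1 FPKM or more in 3 libraries were fitted as log2(FPKM + 1) with limma 3.58.1 (R 4.3.3; mean trend, robust, no scaling). P-values were adjusted by Benjamini-Hochberg over 10901 genes, with a threshold of 0.05. The fit was tested on simulated data. Fold changes understate low genes. The genes, lists and named genes (highest, lowest and smallest p per complex, isoform families, regulators) were chosen with earlier results of these data known. 1 gene, kept in all counts and medians, is not reported by name or drawn as a row. Promoter motifs were not run, for lack of sequence. Alternatives were 3 scalings, 2 filters, pseudocount 0.1, variance settings, sample weights, a replicate block and leaving out each library. Figures used matplotlib 3.10.9 in Python 3.11.15.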

Additional observations from a re-analysis of the deposited data

How the results depend on the processing

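Over 16 alternatives 0 of the 50 genes passed the threshold. Over all genes tested, 1 gene was lower in place of 0 with scaling to the FPKM total, scaling to the nuclear FPKM total, quantile normalization and array quality weights, and leaving out single replicates gave 1 to 2 higher and 0 lower. The median log2 fold change of the 50 genes was -0.12 when High-Low replicate 2 was left out, 0.12 when High-Low replicate 3 was, and -0.23 with array quality weights, which gave High-Low 3 a weight of 4.28 and High-Low 2 one of 0.279. With these weights it was -0.26 for complex I, -0.03 for assembly factors, -0.28 for ATP synthase, -0.22 for complex II, -0.11 for complex III and -0.35 for complex IV. Under them 11 of the 50 genes, 10 lower and 1 higher, had an unadjusted p under 0.05, against 16.4% of all genes tested (smallest adjusted p = 0.239 in limma). Without High-Low replicate 2 there were 5, all lower, against 12.95%. The cause of these shifts was not tested. Leaving out single replicates gave -0.18 to 0.12 for ATP synthase, -0.06 to 0.12 for assembly factors, -0.17 to 0.12 for complex I, -0.12 to 0.15 for complex II, -0.02 to 0.26 for complex III and -0.15 to 0.14 for complex IV, so the sign of no complex median was stable. Of the 50 log2 fold changes, 16 changed sign with array weights, 4 with nuclear scaling, 6 with quantile normalization and 2 to 14 with single replicates left out. Among the genes named for the smallest p of their complex, 3 did so: UQCRC1 with nuclear scaling (0.026), quantile normalization (0.019) and single replicates left out (-0.12 to 0.10), COX5A with array weights (-0.0010) and NDUFAF3 with single replicates left out (-0.34 to 0.039). SDHC had an unadjusted p in limma of 0.0236 with nuclear scaling and 0.0185 with quantile normalization, where ATP5PO was also under 0.05. That of SDHC was 0.0456 with total scaling and 0.0367 without High-Low replicate 3. It rose to 0.198 without High-Low replicate 1 and to 0.145 without 2×Trp replicate 1, from 0.0707 in the main setting. With the replicate block the smallest unadjusted p of the 50 genes was 0.0946 in limma, that of ATP5PO. Scaling to the nuclear total moved the median of all genes to 0.05. With the replicate block 0 of the 50 genes passed (smallest adjusted p = 1.00 in limma) and the median stayed at 0.0064. Same-numbered libraries did not deviate together (correlations -0.22, -0.01 and 0.03), so the numbers were not read as pairs. The number of libraries limits the precision, and depth is unknown.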
